A study of Mus musculus with 10 samples.

Results

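The 34 genes described here encode enzymes and regulators of sterol and fatty acid synthesis, taken by name from a list whose rule uses no measured value. All 34 were found by symbol among 28585 genes of the deposited count table, and all 34 passed the filter on low counts that kept 15151 genes. RNA was sequenced from fluorescent cells that were sorted, without antibody staining, from the ischemic hemisphere of mouse brains. Transgenic CD11c cells (4 libraries, replicates 23, 24, 26 and 27) were CD11c-eYFP+ cells of Tg(Itgax-Venus)1Mnz mice, in which a yellow fluorescent protein is driven by regulatory sequence of Itgax, the CD11c gene, aged 13 to 14 weeks. Parabiotic CD11c cells (3 libraries, replicates 3, 11 and 15) were CD11c-eYFP+ cells recovered from C57BL/6 mice of 15 to 16 weeks that shared a circulation with a Tg(Itgax-Venus)1Mnz partner, so that the reporter came from the partner's blood-borne cells. Microglia (3 libraries, replicates 39, 40 and 41) were CX3CR1+ cells of CX3CR1CreERT2:Rosa26-tdT mice of 13 to 14 weeks, in which an inducible Cre under the fractalkine receptor gene switches on a red reporter. The mice were female where the labels give a sex. Parabiotic replicate 15 was placed by its title and age, because its labels give no cell type or sex and list the reporter genotype without a parabiotic partner. All groups came from ischemic tissue, so no library gives the level in an uninjured brain. The labels do not say whether replicates were separate animals, so p-values here refer to sample-to-sample spread, which may be technical.

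Cells make cholesterol from acetyl-CoA by way of mevalonate and squalene. Fatty acid synthase builds fatty acids with carbon from malonyl-CoA, and elongases and desaturases then modify these fatty acids. Most of these genes are targets of the sterol regulatory element-binding proteins SREBP-1 and SREBP-2, transcription factors held in the endoplasmic reticulum by Insig proteins when sterols are plentiful and escorted to the Golgi by Scap when sterols are scarce. In the brain most cholesterol is made locally, by astrocytes and oligodendrocytes in particular, and phagocytes that clear myelin take up large amounts of it.

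Library totals lay between 31534625 and 41730688 counts, and the 34 members together held 0.104% to 0.151% of them, with the lowest share in transgenic replicate 26. Values below are CPM, counts scaled to library size by the TMM method, and values per library follow the replicate order given above. The summed level of 8 microglial marker genes was 5889 to 17020 CPM in transgenic, 2052 to 3586 CPM in parabiotic and 17830 to 20480 CPM in microglia libraries. For 8 dendritic cell markers the sums were 129.6 to 614 CPM, 945.7 to 1369 CPM and 12.3 to 19.0 CPM in the same order of groups, and for 6 monocyte markers 176 to 529 CPM, 753.5 to 917 CPM and 9.94 to 12.8 CPM. Astrocyte markers summed to 30.8 to 65.5 CPM in transgenic, 16.4 to 19.4 CPM in parabiotic and 113 to 191 CPM in microglia libraries. Oligodendrocyte markers summed to 154 to 236 CPM, 231 to 280.5 CPM and 212 to 236 CPM, and Opalin was at 0 in parabiotic libraries. Neutrophil markers were highest in parabiotic replicate 11, at 573 CPM. In the test described below all 8 microglial markers were lower and all 8 dendritic cell markers higher in parabiotic cells than in microglia. Of all genes tested 17.9% were lower and 17.4% higher there. In transgenic cells against microglia 4 microglial markers were lower and 7 dendritic cell markers higher, where 4.79% and 8.88% of all genes were. Between transgenic and parabiotic cells all 8 microglial markers were higher and 1 dendritic cell marker lower, where 7.63% and 2.42% of all genes were. The part of these other cell types in the results below was not tested. In such bulk libraries fewer cells of a type and less RNA per cell cannot be told apart. Transgenic replicates 26 and 27 carry library numbers away from the run of the other 8, and within the transgenic group only replicates 23 and 24 were close, with a chi-square per degree of freedom of 18.8 against 270 to 342 for its other pairs.

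Levels of the members were spread widely once divided by exon length. Per kilobase of exon, the highest mean level in transgenic CD11c cells was that of Acly, ATP citrate lyase, which makes cytosolic acetyl-CoA, at 51.7 CPM per kb, followed by Elovl5 at 38.6, Scd2 at 33.8 and Ebp at 19.8 CPM per kb. In parabiotic CD11c cells Elovl5, an elongase of polyunsaturated fatty acids, led with 50.1 CPM per kb, followed by Acly at 40.8, Scd2 at 34.1 and Pmvk at 24.01 CPM per kb. In microglia Acly led with 75.1 CPM per kb, followed by the desaturases Scd2 at 31.8 and Fads1 at 22.3 CPM per kb, and Elovl5 at 17.97 CPM per kb. The lowest mean levels in microglia were those of Elovl6 at 0.050, Idi1 at 0.11 and Scd1 at 0.13 CPM per kb.

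**Figure D1:**
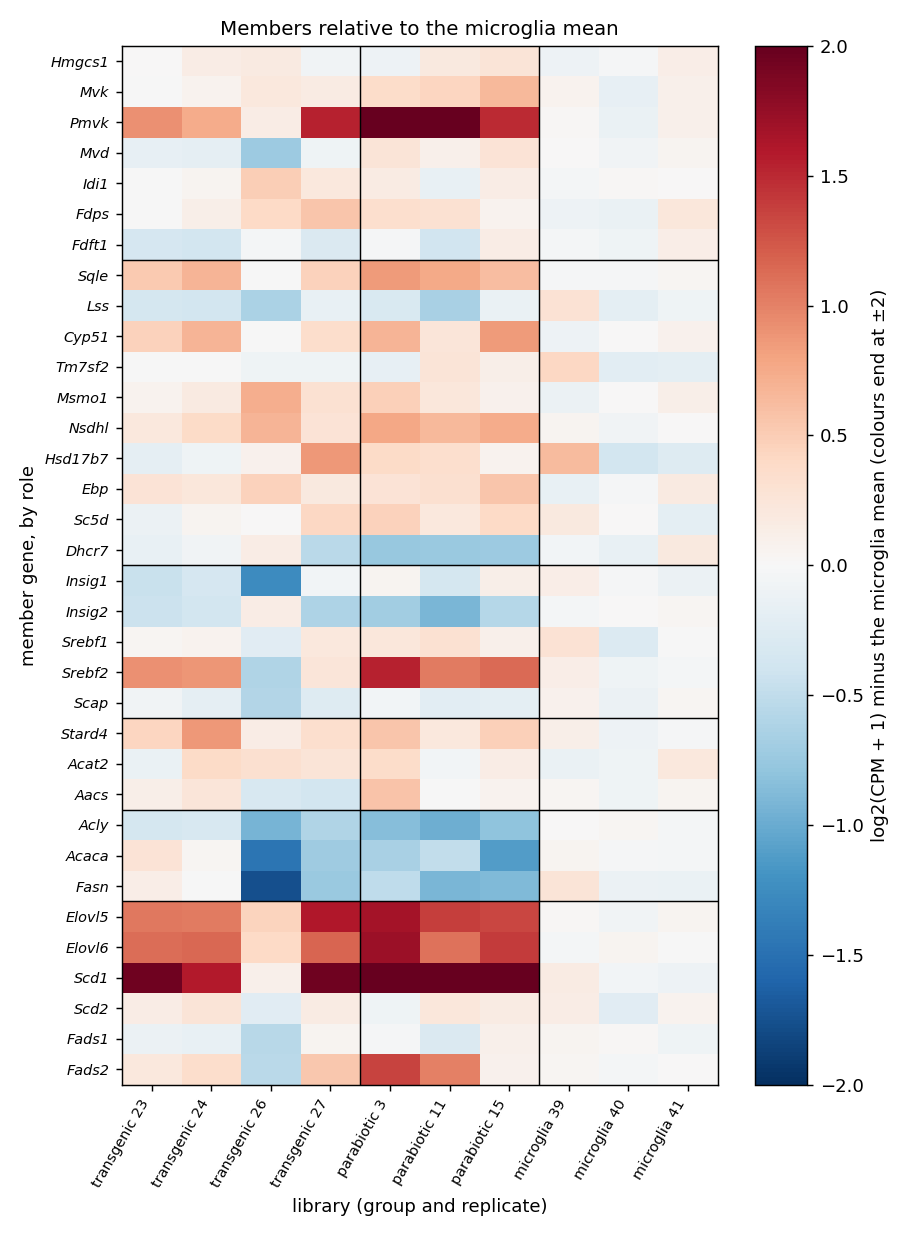
Each row is 1 of the 34 genes, grouped by role, and each column 1 library, with the 4 transgenic libraries first, then the 3 parabiotic and the 3 microglia libraries. Colour gives log2(CPM + 1) minus the mean of the microglia libraries. Parabiotic columns are above the microglia mean for Scd1, Pmvk, Elovl5, Elovl6 and Srebf2 and below it for Acly, Acaca, Fasn, Dhcr7 and Insig2, and transgenic replicate 26 departs from the other 3 transgenic columns.

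Parabiotic CD11c cells against microglia gave the most calls of the 3 comparisons, in both directions. Among the genes that rose, Scd1, which makes oleic acid from stearic acid, averaged 11.1 ± 4.58 CPM in parabiotic cells and 0.626 ± 0.169 CPM in microglia, and Elovl5 177 ± 21.98 CPM and 63.3 ± 2.996 CPM (SD, n = 3 each). Acly fell, averaging 215 ± 13.8 CPM in parabiotic cells and 396 ± 8.88 CPM in microglia (SD, n = 3 each). In edgeR's quasi-likelihood test with Benjamini-Hochberg adjustment over all genes tested, 8 members rose, 3 fell and 23 did not pass a threshold of 0.05. That is 32.4% of the members called, against 35.3% of all 15151 genes tested, of which 17.4% were called higher and 17.9% lower. The share of members called therefore lay near that of all genes. The median log2 fold change was 0.23 over the members and -0.02 over all genes tested. Library ranges did not overlap for 14 members above microglia and 5 below, together 19 of 34, where 60.3% of all genes did not overlap (30.5% above and 29.7% below). Without parabiotic replicate 3, and likewise without microglia replicate 40, 5 members were called higher, with 25.4% and 23.6% of all genes called. Without transgenic replicates 26 and 27, 12 were called higher and 5 lower, with 54% of all genes called.

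**Figure D2:**
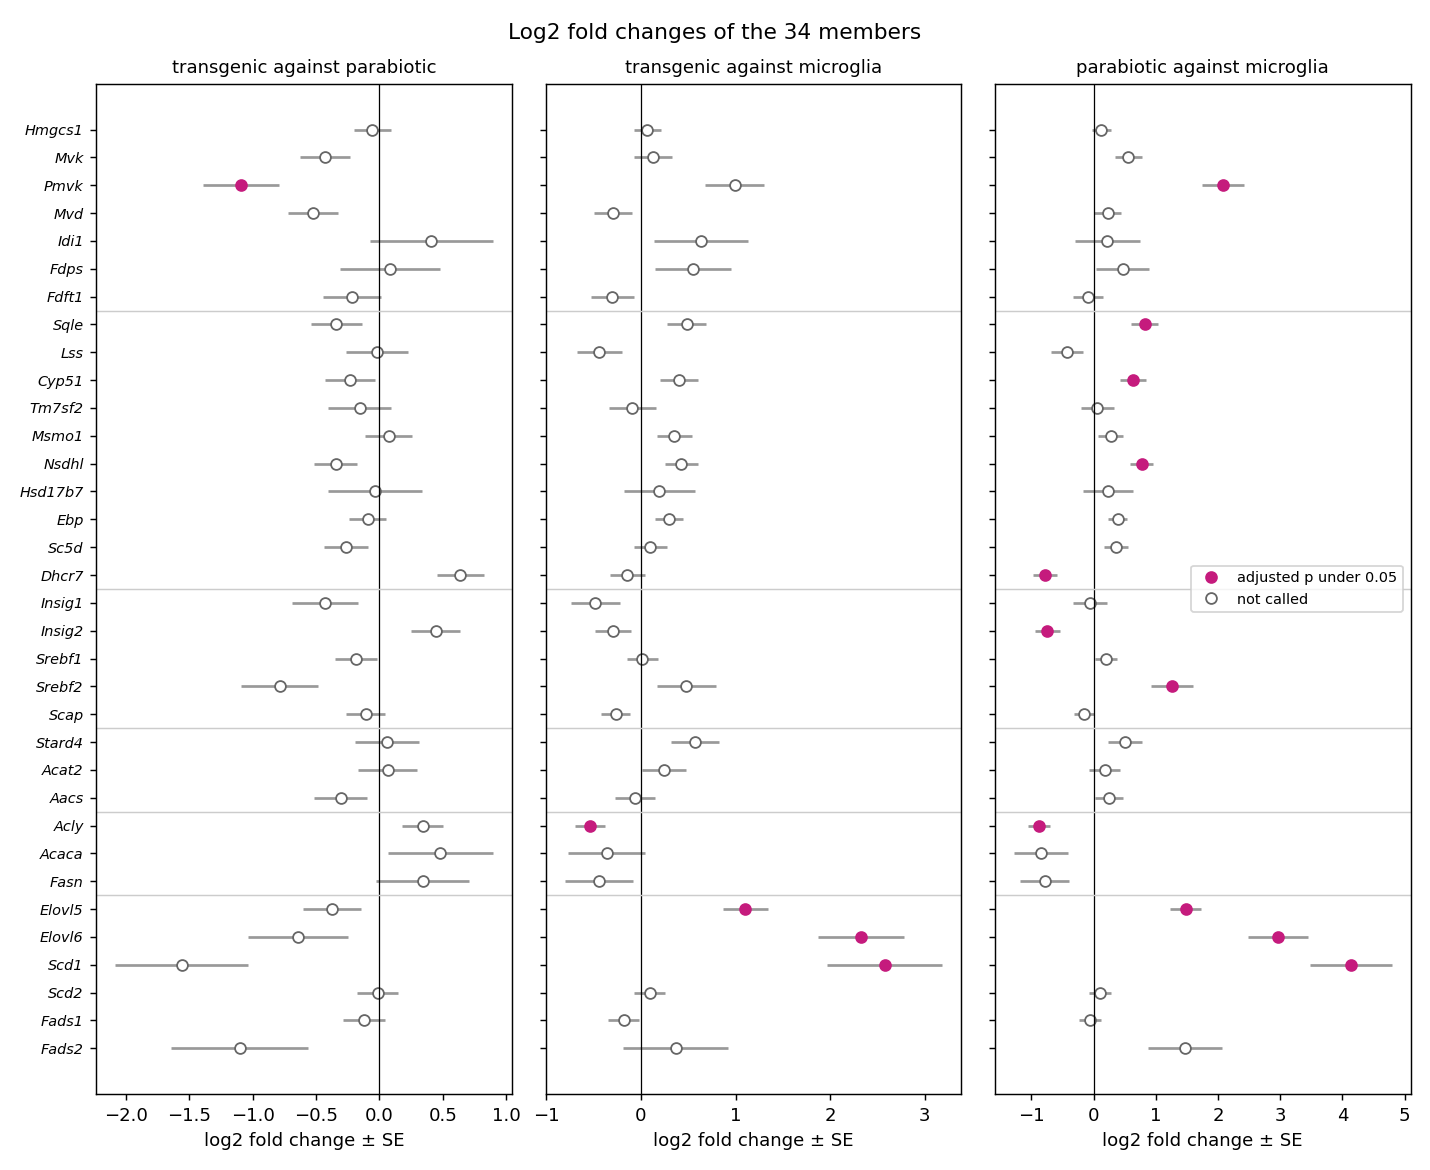
Points are log2 fold changes of the 34 genes in the 3 comparisons, with bars of 1 SE from edgeR, and coloured points passed an adjusted p of 0.05. Scd1, Elovl6, Pmvk and Elovl5 are at the right in parabiotic CD11c cells against microglia, Acly, Acaca and Fasn at the left, and in transgenic against parabiotic CD11c cells Pmvk alone passed.

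Among the 7 genes from mevalonate synthesis to squalene, 14.3% were called in parabiotic CD11c cells against microglia, where 35.3% of all genes were. Of these 7, 1 rose and none fell, with a median log2 fold change of 0.23. That gene was Pmvk, phosphomevalonate kinase, which adds the second phosphate to mevalonate. Pmvk had 19.3, 16.9, 10.9 and 30.3 CPM in the transgenic libraries, 48.9, 45.4 and 29.2 CPM in the parabiotic libraries and 9.92, 8.81 and 10.5 CPM in microglia. All parabiotic libraries exceeded all microglia libraries, while the transgenic range reached into the parabiotic one through replicate 27. The log2 fold change was 2.08 ± 0.34 (SE, adjusted p = 0.00073) in parabiotic CD11c cells against microglia. Hmgcs1, the synthase that forms HMG-CoA, did not pass in any comparison: it had 54.1, 60.3, 61.1 and 51.6 CPM in the transgenic libraries, 50.3, 62.3 and 64.5 CPM in the parabiotic libraries and 50.02, 53.2 and 59.1 CPM in microglia. The 3 ranges overlapped. Mvk, which phosphorylates mevalonate first, stood at 5.64 ± 0.466, 7.60 ± 0.909 and 5.15 ± 0.608 CPM in transgenic, parabiotic and microglia libraries (SD, n = 4, 3 and 3), with a log2 fold change of 0.56 ± 0.22 (SE, adjusted p = 0.0643) in parabiotic cells against microglia. That value passed without transgenic replicate 26 (adjusted p = 0.0443) and without transgenic replicate 27 (adjusted p = 0.0402). Mvd, mevalonate diphosphate decarboxylase, and Fdft1, squalene synthase, lay between 4.29 and 13.8 CPM in all libraries, and Idi1 and Fdps, an isomerase and a synthase of isoprenyl diphosphates, between 0.243 and 1.66 CPM. Counts of Fdps and Idi1 are uncertain, because near-identical copies elsewhere in the genome cover 76.8% and 22.6% of their transcripts. Fdps also shares 26.7% of its exon bases with Gm43738 on the same strand, and 18.3% of the exon bases of Fdft1 overlap the lysosomal protease gene Ctsb on the other strand.

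Promoters are shown for 8 members, those of Hmgcs1, whose window matches a form of the sterol regulatory element, and of 7 members called in parabiotic CD11c cells against microglia. Dhcr7 and Elovl6, also called there, have windows that are not printed. RefSeq promoter windows on GRCm38.p6, from 250 bases before to 50 after a gene start, were found for 27 of the 34 members, 35 windows in all, and Fdps, Fdft1, Sqle, Stard4, Scd1, Scd2 and Fads1 had none. Each sequence printed here is the 150 bases before the outermost of the RefSeq and GENCODE M21 starts of the gene, on its strand, 5′ to 3′. A stretch can thus end upstream of the RefSeq start and leave out matches counted in the window, as for the CCAAT of Cyp51 and 4 of the 5 GGGCGG of Srebf2. Capitals mark matches on either strand to TCACCCCAC, a form of the sterol regulatory element, CCAAT, bound by NF-Y, and GGGCGG, bound by Sp1. The E-box CACGTG was searched too. The sequences of the mevalonate genes are at chr13:119690201-119690350 on the plus strand and chr3:89454391-89454540 on the plus strand, and the capitals in Hmgcs1 hold one TCACCCCAC.
Hmgcs1: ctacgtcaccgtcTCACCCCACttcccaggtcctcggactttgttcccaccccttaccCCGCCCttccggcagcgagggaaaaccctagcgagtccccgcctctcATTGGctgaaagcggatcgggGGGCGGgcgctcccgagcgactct
Pmvk: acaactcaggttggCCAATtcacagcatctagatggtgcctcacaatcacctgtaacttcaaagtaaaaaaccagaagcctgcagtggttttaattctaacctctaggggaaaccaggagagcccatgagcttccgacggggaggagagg
TCACCCCAC was found in 1 of the 35 windows, that of Hmgcs1, or 2.86%, against 0.551% of all 32851 promoter windows, and the looser TCACNCCAC, which includes it, in the same window, against 1.24% of all. CCAAT was found in 22 windows of 21 members, 62.9%, against 37.4% of all windows. GGGCGG was in 25 windows of 21 members, 71.4%, against 35.7% of all windows and 59.6% of the 13617 windows of genes that passed the filter. CACGTG was in 7 of the 35 windows, those of 6 members, or 20%. It was in 7.15% of all windows and 9.65% of those of genes that passed the filter. These matches describe letters only and say nothing of binding in these cells.

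Of the 10 genes that turn squalene into cholesterol, 3 rose and 1 fell in parabiotic CD11c cells against microglia, with a median log2 fold change of 0.32. That is 40% called, close to the 35.3% of all genes tested. Nsdhl, a dehydrogenase in the removal of sterol methyl groups, had 12.4, 14.1, 17.5 and 12.9 CPM in the transgenic libraries, 18.7, 17.2 and 18.3 CPM in the parabiotic libraries and 11.1, 10.01 and 10.7 CPM in microglia. Parabiotic libraries exceeded all microglia libraries, with a log2 fold change of 0.77 ± 0.18 (SE, adjusted p = 0.00725). Sqle, squalene epoxidase, the first oxygen-requiring step, had 11.2, 12.7, 7.52 and 10.7 CPM in the transgenic libraries, 14.4, 13.4 and 12.1 CPM in the parabiotic libraries and 7.40, 7.43 and 7.76 CPM in microglia. Here too the parabiotic and microglia libraries did not overlap, with a log2 fold change of 0.82 ± 0.22 (SE, adjusted p = 0.0125), which missed the threshold without parabiotic replicate 3 (adjusted p = 0.0518) and without microglia replicate 40 (0.0586). Cyp51, the lanosterol demethylase, had 35.8, 41.5, 25.5 and 32.95 CPM in the transgenic libraries, 41.6, 30.5 and 47.03 CPM in the parabiotic libraries and 23.8, 25.8 and 27.3 CPM in microglia. Its log2 fold change was 0.63 ± 0.21 (SE, adjusted p = 0.0383), and leaving out any of parabiotic replicates 3 and 15 or microglia replicates 39, 40 and 41 gave adjusted p values of 0.11, 0.154, 0.127, 0.119 and 0.0721 in that order. Cyp51 also missed the threshold with upper quartile scaling (0.0511) and with no filter (0.0721). The lower gene was Dhcr7, 7-dehydrocholesterol reductase, one of the last steps towards cholesterol. Dhcr7 had 28.4, 29.8, 34.9 and 21.2 CPM in the transgenic libraries, 18.1, 18.3 and 18.6 CPM in the parabiotic libraries and 30.1, 28.3 and 36.3 CPM in microglia. The parabiotic libraries lay within 18.1 to 18.6 CPM, below every other library, and the log2 fold change was -0.78 ± 0.20 (SE, adjusted p = 0.00952) against microglia. The promoter stretches of both genes with an entry among the called higher ones are at chr5:4104747-4104896 on the minus strand and chrX:72918371-72918520 on the plus strand.
Cyp51: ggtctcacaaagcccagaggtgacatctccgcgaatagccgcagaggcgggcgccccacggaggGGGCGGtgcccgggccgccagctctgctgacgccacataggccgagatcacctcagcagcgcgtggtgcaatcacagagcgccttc
Nsdhl: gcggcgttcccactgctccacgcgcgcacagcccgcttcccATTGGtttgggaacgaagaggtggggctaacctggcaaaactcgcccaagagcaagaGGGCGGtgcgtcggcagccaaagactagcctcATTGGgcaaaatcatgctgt
The other 6 genes of these steps did not pass in parabiotic cells against microglia. Ebp, a sterol isomerase, stood at 45.8 ± 4.02, 48.8 ± 5.19 and 37.3 ± 4.56 CPM in transgenic, parabiotic and microglia libraries (SD, n = 4, 3 and 3). Its log2 fold change of 0.39 ± 0.16 (SE, adjusted p = 0.075) passed without transgenic replicate 26 (adjusted p = 0.0409) or 27 (0.0474). Msmo1 and Sc5d, oxidases of sterol carbon, lay between 21.2 and 53.0 CPM, and Lss, Tm7sf2 and Hsd17b7, a cyclase and a pair of reductases, between 3.44 and 9.72 CPM in all libraries. Tm7sf2 shares 12.1% of its exon bases with Vps51 on the same strand, so that reads there could be counted for either.

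Of the 5 genes of the SREBP system 1 rose and 1 fell in parabiotic CD11c cells, with a median log2 fold change of -0.06. That is 40% called, against 35.3% of all genes tested. Srebf2, which encodes SREBP-2, the family member tied most closely to cholesterol genes, had 90.6, 88.8, 31.1 and 56.8 CPM in the transgenic libraries, 140.4, 99.4 and 106 CPM in the parabiotic libraries and 52.4, 45.01 and 46.5 CPM in microglia. The parabiotic libraries exceeded all others, and transgenic replicate 26 was lower than any microglia library. The log2 fold change was 1.27 ± 0.34 (SE, adjusted p = 0.013) against microglia, and it missed the threshold without parabiotic replicate 3 (adjusted p = 0.0539) and without microglia replicate 40 (0.0576). Insig2, one of the proteins that retain Scap and SREBP in the endoplasmic reticulum, had 30.95, 32.5, 46.7 and 26.96 CPM in the transgenic libraries, 25.6, 21.8 and 28.1 CPM in the parabiotic libraries and 40.8, 42.5 and 43.1 CPM in microglia. All parabiotic libraries were below all microglia libraries, with a log2 fold change of -0.74 ± 0.21 (SE, adjusted p = 0.0165), which missed the threshold without parabiotic replicate 3 (adjusted p = 0.0512) or 11 (0.0715). The promoter stretches of both are at chr15:82147031-82147180 on the plus strand and chr1:121332590-121332739 on the minus strand.
Srebf2: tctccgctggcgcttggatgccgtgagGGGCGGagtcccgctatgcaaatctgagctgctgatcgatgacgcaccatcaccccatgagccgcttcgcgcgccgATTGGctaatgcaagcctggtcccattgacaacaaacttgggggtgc
Insig2: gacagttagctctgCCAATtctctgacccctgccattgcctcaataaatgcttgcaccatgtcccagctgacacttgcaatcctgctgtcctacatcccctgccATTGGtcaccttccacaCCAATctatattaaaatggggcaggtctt
Srebf1, which encodes SREBP-1, stood at 80.3 ± 9.90, 91.5 ± 6.37 and 79.5 ± 15.7 CPM in transgenic, parabiotic and microglia libraries (SD, n = 4, 3 and 3) and did not pass, nor did Insig1 at 19.3 ± 6.34, 25.95 ± 4.50 and 26.96 ± 2.46 CPM or Scap, the escort of SREBP, at 47.9 ± 7.25, 51.7 ± 3.18 and 57.7 ± 4.29 CPM. Of the pair of SREBP genes, the ratio of Srebf1 to Srebf2 per kilobase was 1.14, 1.19, 2.75 and 2.04 in the transgenic libraries, 0.838, 1.25 and 1.02 in the parabiotic libraries and 2.34, 1.84 and 2.13 in microglia. Ratios in the parabiotic libraries were below all microglia ratios, and of the transgenic libraries replicates 23 and 24 lay below the microglia range and replicates 26 and 27 above or within it. The ratio of Insig1 to Insig2 per kilobase was 0.706, 0.733, 0.257 and 1.08 in the transgenic libraries, 1.22, 1.07 and 1.16 in the parabiotic libraries and 0.816, 0.697 and 0.648 in microglia. It exceeded the microglia range in every parabiotic library, and transgenic libraries lay below, within and above that range.

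The 3 genes that feed and build palmitate, Acly, Acaca and Fasn, were each lower in every parabiotic library than in any microglia library, but Acly alone passed. Of all genes tested, 29.7% lay below microglia without overlap and 17.9% were called lower. Acly had 309, 316, 207 and 259 CPM in the transgenic libraries, 218, 200.2 and 227 CPM in the parabiotic libraries and 396, 405 and 387 CPM in microglia. Microglia libraries were higher than all CD11c libraries, and the log2 fold change in parabiotic cells against microglia was -0.88 ± 0.17 (SE, adjusted p = 0.00245). Fasn, fatty acid synthase, had 68.8, 62.98, 17.9 and 37.2 CPM in the transgenic libraries, 43.9, 32.9 and 33.8 CPM in the parabiotic libraries and 75.4, 57.9 and 57.3 CPM in microglia. Its transgenic libraries fell apart into replicates 23 and 24, which lay within the microglia range, and 26 and 27, which did not, and the log2 fold change in parabiotic cells against microglia was -0.79 ± 0.39 (SE, adjusted p = 0.145). Acaca, acetyl-CoA carboxylase 1, which makes malonyl-CoA, had 10.9, 9.14, 2.61 and 5.07 CPM in the transgenic libraries, 5.28, 6.05 and 3.55 CPM in the parabiotic libraries and 9.32, 8.75 and 8.64 CPM in microglia. Transgenic replicates 23 and 24 lay above or within the microglia range and 26 and 27 below it, with a log2 fold change of -0.84 ± 0.44 (SE, adjusted p = 0.162) in parabiotic cells against microglia. Without transgenic replicates 26 and 27 both passed in that comparison, with adjusted p of 0.00127 for Fasn and 0.00684 for Acaca, and Fasn passed without replicate 26 alone (0.0248). Both genes also passed with only the groups compared in the fit and with a term for transgenic replicates 26 and 27. A copy, Gm5182, covers 64.3% of the transcript of Acaca, which makes its counts uncertain. Stard4, a sterol carrier, Acat2, an acetoacetyl-CoA thiolase, and Aacs, which makes acetoacetyl-CoA, did not pass in any comparison and had a median log2 fold change of 0.24 in parabiotic cells against microglia. Near-identical stretches of Acat3 and Tcp1 cover 65.6% of the Acat2 transcript.

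**Figure D3:**
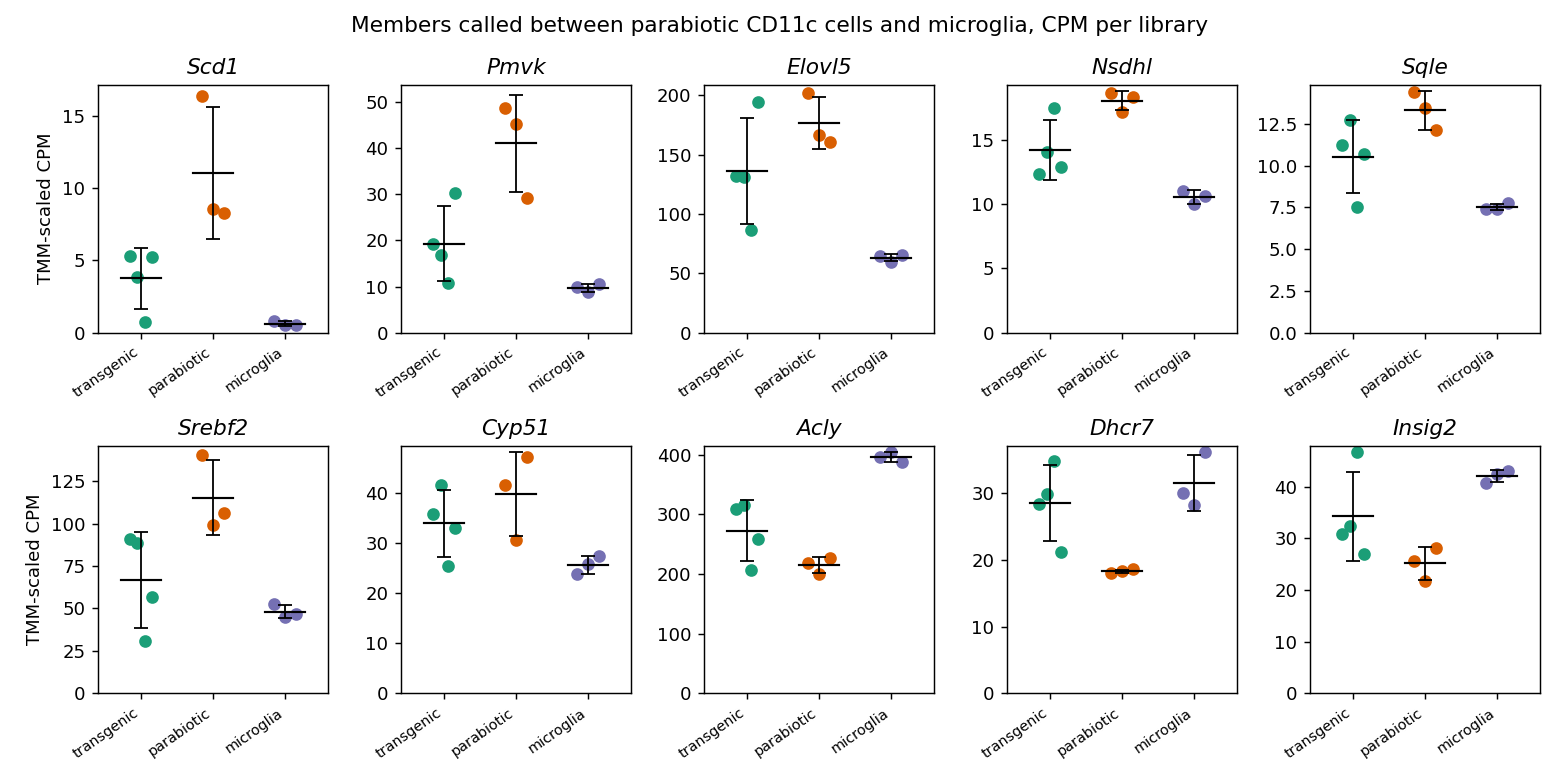
Each panel shows 1 of 10 genes called between parabiotic CD11c cells and microglia (all but Elovl6), with 1 point per library in CPM from 0, a horizontal bar at the group mean and whiskers of 1 SD, for transgenic, parabiotic and microglia libraries from left to right. Microglia points are close together, as in Acly at 387 to 405 CPM, and transgenic points are spread, as in Elovl5 at 86.2 to 195 CPM.

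Of the 6 elongases and desaturases, 3 rose in parabiotic CD11c cells and none fell, with a median log2 fold change of 1.47, the largest of the 6 role groups. That is 50% of only 6 genes called, against 35.3% of all genes tested. Scd1 had 5.27, 3.86, 0.734 and 5.21 CPM in the transgenic libraries, 16.4, 8.58 and 8.32 CPM in the parabiotic libraries and 0.819, 0.553 and 0.507 CPM in microglia. Every parabiotic library exceeded every transgenic library, and the transgenic replicate 26 was within the microglia range. The log2 fold change was 4.14 ± 0.66 (SE, adjusted p = 0.000639) in parabiotic cells against microglia. Elovl5 had 132, 131, 86.2 and 195 CPM in the transgenic libraries, 202, 167 and 161 CPM in the parabiotic libraries and 64.5, 59.9 and 65.5 CPM in microglia. All CD11c libraries exceeded the microglia range, and the log2 fold change was 1.48 ± 0.25 (SE, adjusted p = 0.000946). Elovl6, which extends palmitate to stearate, was low in all libraries, at 0.734 to 1.97 CPM in transgenic, 1.80 to 3.33 CPM in parabiotic and 0.283 to 0.368 CPM in microglia libraries, and its log2 fold change was 2.96 ± 0.48 (SE, adjusted p = 0.000663). The groups of parabiotic and microglia libraries did not overlap for any of these 3 genes, where 60.3% of all genes did not overlap. The promoter stretches of Acly, described above, and of Elovl5 are at chr11:100528001-100528150 on the minus strand and chr9:77917214-77917363 on the plus strand.
Acly: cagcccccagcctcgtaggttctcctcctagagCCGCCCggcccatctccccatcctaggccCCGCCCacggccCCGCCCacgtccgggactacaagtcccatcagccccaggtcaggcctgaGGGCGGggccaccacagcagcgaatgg
Elovl5: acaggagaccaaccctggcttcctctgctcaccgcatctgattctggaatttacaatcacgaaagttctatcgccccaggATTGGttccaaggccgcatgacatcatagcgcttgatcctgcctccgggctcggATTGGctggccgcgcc
Scd2, the stearoyl-CoA desaturase best known from brain, did not pass in any comparison. It had 192, 205, 148 and 194 CPM in the transgenic libraries, 163, 203 and 194 CPM in the parabiotic libraries and 192, 148 and 181 CPM in microglia, and all 3 ranges overlapped. Per kilobase, the ratio of Scd1 to Scd2 was 0.0307, 0.0210, 0.00553 and 0.0300 in the transgenic libraries, 0.112, 0.0473 and 0.0478 in the parabiotic libraries and 0.00477, 0.00417 and 0.00313 in microglia. Scd2 was thus the far larger transcript in every library, and 11.4% of its transcript is near-identical to Scd1. Fads1, the delta-5 desaturase, stood at 94.7 ± 16.2, 103 ± 13.8 and 107 ± 5.86 CPM in transgenic, parabiotic and microglia libraries (SD, n = 4, 3 and 3) and did not pass. Fads2, the delta-6 desaturase, had 1.28, 1.51, 0.354 and 1.88 CPM in the transgenic libraries, 4.05, 2.95 and 1.09 CPM in the parabiotic libraries and 1.02, 0.921 and 0.981 CPM in microglia. Parabiotic replicates 3 and 11 were above all other libraries and replicate 15 was not, and the log2 fold change of 1.47 ± 0.60 (SE, adjusted p = 0.0776) passed without parabiotic replicate 15 (adjusted p = 0.0372) and without transgenic replicate 26 (0.025). The ratio of Fads2 to Fads1 per kilobase was 0.0190, 0.0228, 0.00715 and 0.0247 in the transgenic libraries, 0.0558, 0.0491 and 0.0139 in the parabiotic libraries and 0.0133, 0.0123 and 0.0142 in microglia, so that parabiotic replicates 3 and 11 stood apart in the ratio too.

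Transgenic CD11c cells against microglia gave 4 calls, all in fatty acid genes. Elovl5 averaged 136 ± 44.7 CPM in transgenic cells and 63.3 ± 2.996 CPM in microglia, Scd1 3.77 ± 2.13 CPM and 0.626 ± 0.169 CPM, and Elovl6 1.63 ± 0.599 CPM and 0.323 ± 0.0433 CPM, and these 3 rose (SD, n = 4 and 3). Acly fell, averaging 273 ± 51 CPM in transgenic cells. The test called 3 members higher and 1 lower, 11.8% of 34, against 13.7% of all genes tested, of which 8.88% were higher and 4.79% lower. The share of members called was thus close to that of all genes, and the median log2 fold change was 0.12 over the members and 0.02 over all genes. Libraries did not overlap for 6 members above and 2 below microglia, where 30.3% of all genes did not overlap (15.6% above and 14.7% below). The log2 fold changes were 2.33 ± 0.45 (SE, adjusted p = 0.00768) for Elovl6, 1.10 ± 0.24 (SE, adjusted p = 0.012) for Elovl5, 2.58 ± 0.61 (SE, adjusted p = 0.0194) for Scd1 and -0.54 ± 0.16 (SE, adjusted p = 0.0476) for Acly. No gene of the mevalonate, squalene or SREBP groups passed. This comparison shares its microglia libraries with that of parabiotic CD11c cells, and the log2 fold changes of the same 4 genes there were 2.96, 1.48, 4.14 and -0.88 in the same order.

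Part of these calls changed when single libraries were left out. Elovl5 missed the threshold without microglia replicate 39 (adjusted p = 0.0593) or 40 (0.0659), and Scd1 without microglia replicate 39 (0.0658), 40 (0.0919) or 41 (0.0691) and with limma-voom (0.112). Acly missed it without parabiotic replicates 3, 11 or 15 (0.0763, 0.0749 and 0.076), which enter through the shared estimate of spread, without transgenic replicate 27 (0.0662) and without microglia replicates 39, 40 or 41 (0.143, 0.152 and 0.0905), and it was not called with no filter (0.0677), with only the groups compared (0.11) or with a term for transgenic replicates 26 and 27 (0.17). Without transgenic replicate 26, 6 members were called higher and 2 lower, with 12.8% of all genes called. Pmvk (adjusted p = 0.0182), Sqle (0.0426), Srebf2 (0.0474) and Insig2 (0.0459) then joined the called genes. Without microglia replicate 39 or 40 only 1 member was called higher and none lower, with 4.7% and 4.88% of all genes called. Without replicate 41, 2 members were higher and none lower, with 8.58% of all genes called, against 13.7% with all libraries. Without both transgenic replicates 26 and 27, 8 members were higher and 1 lower, with 15.6% of all genes called. The higher ones included Pmvk with a log2 fold change of 0.89 (adjusted p = 0.0159), Sqle with 0.66 (0.0165), Cyp51 with 0.59 (0.0463), Srebf2 with 0.90 (0.00212) and Stard4 with 0.79 (0.0446).

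Transgenic against parabiotic CD11c cells differed in 1 member. Pmvk averaged 19.3 ± 8.10 CPM in transgenic cells and 41.1 ± 10.5 CPM in parabiotic cells (SD, n = 4 and 3), and its log2 fold change was -1.09 ± 0.30 (SE, adjusted p = 0.0423). No member rose, and 33 did not pass, so that 2.94% of the members were called, against 10.1% of all genes tested, of which 7.63% were higher and 2.42% lower. At an unadjusted p under 0.05, 2 members were higher and 4 lower, while DESeq2 called 1 higher and 2 lower and limma-voom 0 higher and 1 lower. The median log2 fold change was -0.14 over the members and 0.04 over all genes, and 24 of 34 estimates were negative. Libraries did not overlap for 1 member above and 4 below the parabiotic ones, where 22.7% of all genes did not overlap (12.4% above and 10.3% below). The member above was Dhcr7, with a log2 fold change of 0.64 ± 0.18 (SE, adjusted p = 0.0508), and those below were Mvk, Mvd, Srebf2 and Scd1, whose values were -0.43 ± 0.20 (SE, adjusted p = 0.22), -0.52 ± 0.20 (SE, adjusted p = 0.132), -0.79 ± 0.31 (SE, adjusted p = 0.141) and -1.56 ± 0.52 (SE, adjusted p = 0.0912). All 6 elongases and desaturases had negative estimates and all 3 palmitate genes positive ones, none of which passed.

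The call of Pmvk changed with the libraries used. It missed the threshold without parabiotic replicate 3 (adjusted p = 0.166) or 11 (0.134), without transgenic replicate 23 (0.0799), 24 (0.0892) or 26 (0.0529), and without microglia replicate 39 (0.0621), 40 (0.0631) or 41 (0.0608). Microglia libraries enter this comparison only through the shared filter, scaling and estimate of spread. Leaving out each of these libraries also lowered the share of all genes called, from 10.1% to between 5.21% and 9.43%. Pmvk also missed the threshold with only the groups compared in the fit (0.0888) and with a term for transgenic replicates 26 and 27 (0.0758). Without transgenic replicate 27, Dhcr7 (0.00643) was called higher and Elovl5 (0.0413) lower, and Scd1 was called lower without transgenic replicate 26 (0.034). Without both replicates 26 and 27, 4 members were higher and 4 lower, with 22.5% of all genes called. The 4 higher were Fasn with a log2 fold change of 0.82 (adjusted p = 0.00532), Acly with 0.52 (0.00461), Dhcr7 with 0.65 (0.00796) and Acaca with 1.00 (0.0116). The 4 lower were Pmvk with -1.20 (0.00336), Scd1 with -1.30 (0.0223), Elovl5 with -0.44 (0.0257) and Nsdhl with -0.47 (0.0417).

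The transgenic group, with 1 library more, had the widest ranges for these genes. The ratio of its highest to its lowest library had a median of 1.63 over the 34 members and reached 7.19, for Scd1, against a median of 1.31 and a maximum of 3.70 in parabiotic cells and 1.19 and 2.28 in microglia, groups of 3 libraries each. Between replicates 24 and 23 alone the median ratio was 1.05, with a range of 0.731 to 1.51. Replicate 26 was the lowest of the 4 for 19 members and the highest for 9, among them Dhcr7, Insig2 and Nsdhl. The same library had the highest summed microglial markers of the group, 17020 CPM, and the lowest summed dendritic markers, 129.6 CPM. Replicate 27, with the highest value for 12 members, had the lowest microglial sum, 5889 CPM. Their part in the spread was not tested.

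Averaged over the 34 members as log2(CPM + 1), with a pseudocount of 1 CPM, the level was 4.14 ± 0.18 in transgenic, 4.34 ± 0.10 in parabiotic and 4.02 ± 0.08 in microglia libraries (SD, n = 4, 3 and 3). Over all genes tested the same mean was 3.74, 3.69 and 3.71. The difference over the members was 0.314 between parabiotic cells and microglia, 0.119 between transgenic cells and microglia, and -0.195 between transgenic and parabiotic cells. Transgenic replicate 26, at 3.88, lay below every other library, and without it the difference was 0.206 between transgenic cells and microglia and -0.107 between transgenic and parabiotic cells. Without microglia replicate 40 it was 0.078 between transgenic cells and microglia, and with a pseudocount of 0.1 CPM it was 0.185 there, 0.409 between parabiotic cells and microglia and -0.224 between transgenic and parabiotic cells. By role, the mean of the elongases and desaturases was 4.28 ± 0.43 in transgenic, 4.80 ± 0.22 in parabiotic and 3.71 ± 0.06 in microglia libraries, and that of the palmitate genes 5.44 ± 0.64, 5.18 ± 0.13 and 5.98 ± 0.09 in the same order. The genes from squalene to cholesterol had means of 4.10 ± 0.06, 4.18 ± 0.06 and 3.96 ± 0.11.

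**Figure D4:**
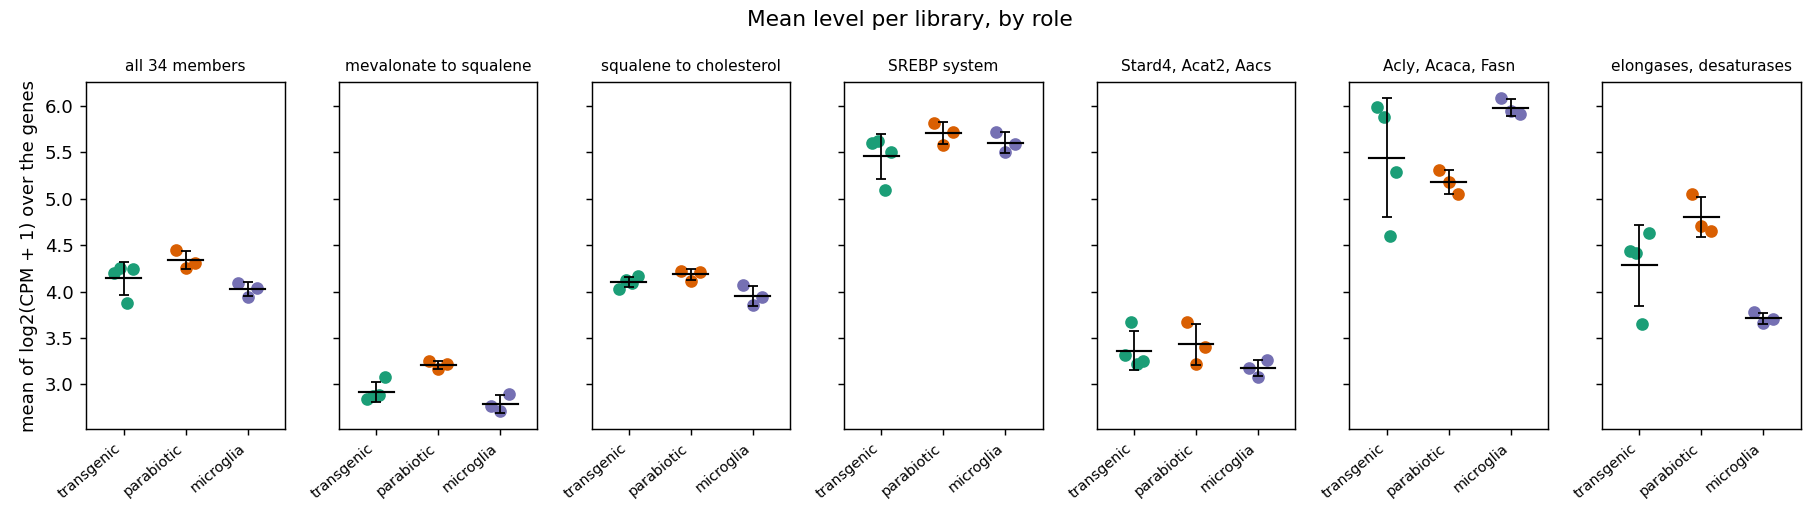
The first panel gives the mean of log2(CPM + 1) over all 34 members and each other panel that over the genes of 1 role, with 1 point per library, a horizontal bar at the group mean and whiskers of 1 SD, for transgenic, parabiotic and microglia libraries from left to right. Elongation and desaturation genes are highest in parabiotic libraries and palmitate genes highest in microglia, with the transgenic means between and the transgenic libraries widely spread.

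Other genes of the same metabolism, 52 in 5 lists, were examined beside the members. Of 48 tested, 10 were higher and 8 lower in parabiotic CD11c cells against microglia, 37.5% against the 35.3% of all genes. Without transgenic replicate 26, and likewise without 27, 16 were higher, with 39.9% and 43.3% of all genes called. Without parabiotic replicate 3, 11 or 15 or microglia replicate 41, 5 were lower, with 25.4%, 26.8%, 26.6% and 28% of all genes called. Among 10 genes of fatty acid activation and storage, Plin2, which coats lipid droplets, averaged 2314 ± 284 CPM in parabiotic cells and 439 ± 215 CPM in microglia, with a log2 fold change of 2.40 ± 0.37 (SE, adjusted p = 0.000529). Dgat1, which makes triglyceride, also rose (1.58 ± 0.29, adjusted p = 0.00151), and Lpin1, a phosphatidate phosphatase, fell (-1.33 ± 0.25, adjusted p = 0.0017). Of the sterol list, Soat1, which esterifies cholesterol for storage, rose (1.44 ± 0.21, adjusted p = 0.000352), and Ch25h, which makes an oxysterol, averaged 1.14 ± 0.410 CPM in parabiotic cells and 109 ± 66.1 CPM in microglia, a log2 fold change of -6.58 ± 0.73 (SE, adjusted p = 6.1e-05). Cyp46a1, a cholesterol hydroxylase known from neurons, had 0 counts in all 3 parabiotic libraries and 138 over the 3 microglia libraries. It was at least 46.1-fold lower when 3 counts over the whole group are taken as the limit, which covers counting error only. Neuron markers, 6 genes, summed to 1.12 to 3.54 CPM in transgenic, 0.152 to 1.00 CPM in parabiotic and 3.99 to 4.94 CPM in microglia libraries. Slc17a7 among them was also at 0 in parabiotic libraries. All 3 neuron markers tested were lower in parabiotic cells than in microglia, where 17.9% of all genes were. The part of neurons in the values of Cyp46a1 was not tested. Among genes of fatty acid supply, Thrsp and Mid1ip1, a pair of related regulators of lipogenesis, both fell, Thrsp to 0.0895 ± 0.0609 CPM in parabiotic cells, against 22.9 ± 1.65 CPM in microglia (-7.94 ± 1.02, adjusted p = 0.000158), and Mid1ip1 to 28.7 ± 3.63 CPM, against 76.5 ± 6.21 CPM (-1.42 ± 0.19, adjusted p = 0.000232). Scd4 stood at 1.55 ± 0.166 CPM in parabiotic cells and at 3 counts over all microglia libraries. In SREBP processing, Erlin1 rose (1.01 ± 0.20, adjusted p = 0.00242) and the site-1 protease gene Mbtps1 fell (-0.64 ± 0.20, adjusted p = 0.03), and in the isoprenoid branch 1 of 10 genes, the prenyltransferase subunit Pggt1b, fell (-0.51 ± 0.16, adjusted p = 0.0307). Mbtps1 and Pggt1b each missed the threshold without any 1 parabiotic or microglia library, with adjusted p of 0.0664 to 0.118 and 0.0574 to 0.109, and Pggt1b with no filter (0.0837).

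In transgenic CD11c cells against microglia 6 of these 48 genes were higher and 1 lower, 14.6% against the 13.7% of all genes. Without microglia replicate 39, 40 or 41, 2, 1 and 2 were higher in that order, with 4.7%, 4.88% and 8.58% of all genes called. Without transgenic replicate 23, 26 or 27, 2 were lower, with 15.5%, 12.8% and 13.5% of all genes called. Plin2 averaged 1526 ± 422 CPM in transgenic cells and 439 ± 215 CPM in microglia (1.80 ± 0.35, adjusted p = 0.00753), and Soat1 449 ± 35.9 CPM and 232 ± 70.5 CPM (0.96 ± 0.20, adjusted p = 0.0101), and both rose. Lpin1 fell (-1.08 ± 0.23, adjusted p = 0.0109), and Acsl3, an acyl-CoA synthetase, Hacd1 and Hsd17b12, enzymes of the elongation cycle, and Scd4 rose, with adjusted p of 0.0431, 0.023, 0.0439 and 0.0234. Soat1 missed the threshold without microglia replicate 40 (0.0659), Lpin1 without microglia replicate 39 (0.0625) or 40 (0.0522), and Hacd1 and Scd4 without any 1 microglia library (0.0535 to 0.115 and 0.0641 to 0.105). Acsl3 and Hsd17b12 missed it without any 1 microglia or parabiotic library and without transgenic replicates 26 or 27, with adjusted p of 0.0536 to 0.17 and 0.0603 to 0.185, and Acsl3 also without transgenic replicate 24 (0.0538). With a term for transgenic replicates 26 and 27, which leaves replicates 23 and 24 to set the transgenic mean, Acsl3 (0.203), Hsd17b12 (0.201), Hacd1 (0.0918) and Lpin1 (0.0558) were not called. Without both replicates Acsl3 (0.0948), Hsd17b12 (0.09) and Hacd1 (0.0686) were not called. With only the groups compared in the fit Acsl3 (0.0855), Hsd17b12 (0.0961), Hacd1 (0.0564) and Scd4 (0.0577) missed the threshold, and with limma-voom Acsl3 (0.0628), Hsd17b12 (0.0508) and Scd4 (0.0583). Acsl3 and Hsd17b12 also missed it with RLE scaling (0.0507 and 0.0543), upper quartile scaling (0.0506 and 0.0555) and no filter (0.0722 and 0.0528). Between transgenic and parabiotic CD11c cells 5 were higher and 0 lower, 10.4% against 10.1% of all genes, with 8 lower at an unadjusted p under 0.05 and 1 lower by DESeq2 and by limma-voom. They were Ch25h (6.22 ± 0.71, adjusted p = 0.000338), Mid1ip1 (1.04 ± 0.18, adjusted p = 0.00407), Thrsp (6.18 ± 0.97, adjusted p = 0.00228), Hacd2 (0.73 ± 0.19, adjusted p = 0.0323) and Cyp46a1, with 69 counts in the transgenic libraries and 0 in the parabiotic ones, at least 15.2-fold higher by the same limit. Without transgenic replicate 26 the log2 fold change of Ch25h was 5.48. Without transgenic replicate 27, 3 genes were lower, with 16.8% of all genes called. Hacd2, an elongation cycle dehydratase, missed the threshold without parabiotic replicates 3, 11 or 15 (0.0915, 0.128 and 0.126), transgenic replicates 23, 24 or 26 (0.0587, 0.057 and 0.0763) or microglia replicate 40 (0.0592). It also missed it with no filter (0.0563), with only the groups compared (0.0732) and with the term for transgenic replicates 26 and 27 (0.0592). Thrsp missed the threshold with limma-voom (0.119).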

How the data were processed

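Per the submitters' processing notes, reads were checked with FastQC 0.11.5 and the tools named include STAR 2.5.3a and DESeq2, with the mouse build GRCm38. The program, annotation and strand rule that assigned reads to genes were not given in the sources used here. Raw counts were deposited by the authors as a table, with 28585 Ensembl genes as rows and 10 libraries as columns. Per the labels' protocols, cDNA came from a template-switching kit, with 1 or 5 ng of RNA and 11 or 9 PCR cycles, and an unstranded library kit, so sense and antisense reads cannot be told apart.

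The 34 members and the other lists were chosen with earlier results of these data known. Symbols came from GENCODE M21 (28492 of the identifiers, 93 had none). The filter filterByExpr by group kept 15151 genes and removed 13434. All 10 libraries entered 1 fit with TMM scaling and the robust quasi-likelihood F test of edgeR 4.0.16 in R 4.3.3, with Benjamini-Hochberg adjustment over all genes tested and a threshold of 0.05. The estimated biological coefficient of variation was 0.317, so the spread between replicates, not depth, limits most values. Members that passed the test and reached 5 CPM in either group's mean are given per library, up to 10 in each comparison, and up to 3 called genes of each other list are named. Alternatives were RLE and upper quartile scaling, DESeq2 1.42.0, limma-voom (limma 3.58.1), no filter or at least 5 CPM in 3 libraries, non-robust dispersion, fits of only the groups compared, a term for replicates 26 and 27, a pseudocount of 0.1 CPM for the mean over members, and leaving out libraries. Near-identical copies were stretches of at least 200 bases at 95% identity.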

Additional observations from a re-analysis of the deposited data

Results flagged for a closer look

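Elovl6 in transgenic replicate 26 stood at 0.734 CPM, while the other 3 transgenic libraries lay at 1.87 to 1.97 CPM. Its gap to the nearest of them took a share of 0.917 of the range of the group, above the critical value of Dixon's test at 95% for 4 libraries. This was the only one of the 34 members with such a library, and chance gives such a gap in about 1 in 20 groups. The difference from microglia was smaller in transgenic than in parabiotic CD11c cells for Pmvk, by -1.09 on the log2 scale in the test of transgenic against parabiotic CD11c cells (adjusted p = 0.0423, edgeR).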

How the results depend on the processing

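No call of a member reversed under any alternative tried. No paired analysis was possible because the groups share no replicate numbers. The count of members higher in parabiotic CD11c cells against microglia (8) ranged from 5 to 11 when single libraries were left out, and that of members lower (3) from 2 to 4; 5 were lower with only those groups fitted, with an added term for replicates 26 and 27 of the transgenic group, and without both. For transgenic cells against microglia, leaving out single libraries gave 1 to 6 higher and 0 to 2 lower; without replicates 26 and 27 8 were higher, and 0 were lower with no filter, with only the groups compared and with the term. For transgenic against parabiotic cells the ranges were 0 to 1 higher and 0 to 2 lower. There, 1 was higher with DESeq2, with at least 5 CPM and with the term, 2 were lower with DESeq2, 0 were lower with only the groups compared and with the term, and without 26 and 27 4 were higher and 4 lower. Of the other pathway genes, leaving out single libraries gave 8 to 16 higher and 5 to 10 lower in parabiotic cells against microglia, 1 to 6 and 0 to 2 in transgenic cells against microglia, and 4 to 5 and 0 to 3 between the CD11c groups. In parabiotic cells against microglia 19 were higher with only the groups compared and without 26 and 27. In transgenic cells against microglia 3 were higher and 3 lower with limma-voom, 2 higher with only the groups compared, 2 lower with DESeq2, 0 lower with the term and 3 lower without 26 and 27. Between the CD11c groups 1 was lower with DESeq2 and with limma-voom, and 2 without 26 and 27. Over all genes, parabiotic cells against microglia gave 5347 calls and 8334 without 26 and 27. Transgenic cells against microglia gave 2070, but 1229 with only the groups compared, 1303 with the term and 3253 with DESeq2. Transgenic against parabiotic cells gave 1523, but 999 with only the groups compared, 2343 with DESeq2 and 3482 without 26 and 27. Leaving out single libraries moved these to 3747 to 6458, 746 to 2684 and 830 to 2510 in that order of comparisons. Of the alternative values for single genes, 1014 kept their direction and their side of the threshold, 49 passed it where the value in the report did not, and 109 no longer passed. The causes were not tested. The mean over members without replicates 26 and 27 was an alternative chosen after seeing the data, and it gave 0.202 between transgenic cells and microglia and -0.112 between transgenic and parabiotic cells.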
